A study of Homo sapiens with 8 samples.

Results

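In CFPAC1 pancreatic cancer cells, 477 H3K27ac peaks lost the mark within 2 hours of hIFNb in all 4 clones studied, both with and without a guide RNA against IRF1. They were chosen by a rule on deposited scores, the submitters' normalised counts per peak and library. A peak was a member when its mean score over the 8 libraries was at least 20 and when log2(score + 1) was lower with hIFNb than without it by at least 0.5 in each clone. The 477 members were 1.89% of the 25184 peaks with a mean score of at least 20, and 1.49% of all 31961 peaks. The same rule turned upward gave 1243 peaks (4.94%), called risers here. Because the rule used the hIFNb change, every hIFNb value of a member below is a description and carries no test.

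The cells were lines grown from single clones of CFPAC1, a long-established line from a human pancreatic ductal adenocarcinoma, isolated by dilution after lentiviral infection. IRF1-guide clones 11 and 13 came from cells given lentiCRISPRv2 with wild-type Cas9 and a guide RNA against IRF1, and control clones 1 and 4 from cells given lentiCRISPRv2 with no guide named. From each clone came 1 library treated for 2 hours with hIFNb, taken here to be human interferon beta, and 1 untreated library (UT), which makes 4 groups of 2 libraries. The replicates of a genotype are 2 separate clones, and the labels do not say whether the IRF1-guide clones lack the IRF1 protein.

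H3K27ac is acetylation of lysine 27 on histone H3, a mark carried by nucleosomes at active promoters and enhancers and written mainly by the acetyltransferases p300 and CBP. Distal peaks of the mark are commonly used to locate enhancers, which are much more specific to cell type than promoters are. Type I interferon acts through a cell-surface receptor and a complex that contains IRF9, which binds interferon-stimulated response elements (ISRE) and switches on antiviral genes within hours. Falls of the mark after such a stimulus have been described at distal elements in other inflammatory settings.

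The total score per library lay between 3277561 and 3460390, and the number of raw reads behind it is unknown. At IRF1 itself (chr5:132442197-132506408, a peak that is not a member) the scores were 2265 and 2033 with hIFNb and 1332 and 1187 UT in IRF1-guide clones, against 3003 and 2159 with hIFNb and 2014 and 1306 UT in control clones. Acetylation of this locus does not show whether the gene was edited. Of 10 ductal epithelial markers 9 had a promoter peak, with CFTR the exception, and their mean scores ran between 108.4 and 5072.6. Of 7 fibroblast markers 1 had one (mean score 62.9), of 8 immune markers 2 (10.8 and 202.8) and of 4 endothelial markers 2 (107.9 and 237.4). Of 6 endocrine and acinar markers 2 had one (814.5 and 5341.2), and of 5 neural markers 1 (503.1). The level of these peaks thus did not set the ductal markers apart.

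Very few members lay at promoters. A transcription start site (TSS) in the deposited annotation fell inside 21 of the 477 members (4.40%, Wilson 95% interval 2.90 to 6.64), against 9408 of the 24707 other peaks with a mean score of at least 20 (38.1%, 37.5 to 38.7). The start sites inside members belonged mostly to non-coding genes. By RefSeq type, 16 of the 21 were long non-coding RNAs (lncRNAs), 3 were of another kind and 1 was not matched. The remaining 1 was protein-coding, SLC14A1, a urea transporter gene. Among the 9408 other peaks with a TSS, 6529 (69.4%) held a protein-coding one. The following windows show 4 start sites that lie inside members, 250 bases before to 50 after each start, from RefSeq on GRCh38.p14. They were chosen for the 2 highest-scoring members that hold a start (SLC14A1 and EHD4-AS1), for the 1 member whose centre is within 2 kb of a protein-coding start (TET1), and for the 1 window with an ISRE match (LOC105370767). Capitals mark matches on either strand to an ISRE core (GAAA repeated after any 2 bases), the interferon-gamma-activated site (GAS) (TTCNNNGAA), the AP-1 motif (TGANTCA), the forkhead motif (TGTTTAC) or a TATA box (TATAAA).
SLC14A1: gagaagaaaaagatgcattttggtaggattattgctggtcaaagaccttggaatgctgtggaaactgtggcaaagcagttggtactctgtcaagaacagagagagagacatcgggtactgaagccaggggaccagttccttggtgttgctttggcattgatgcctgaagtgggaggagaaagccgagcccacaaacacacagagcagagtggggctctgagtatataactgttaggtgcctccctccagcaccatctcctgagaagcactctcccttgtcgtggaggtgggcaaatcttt
EHD4-AS1: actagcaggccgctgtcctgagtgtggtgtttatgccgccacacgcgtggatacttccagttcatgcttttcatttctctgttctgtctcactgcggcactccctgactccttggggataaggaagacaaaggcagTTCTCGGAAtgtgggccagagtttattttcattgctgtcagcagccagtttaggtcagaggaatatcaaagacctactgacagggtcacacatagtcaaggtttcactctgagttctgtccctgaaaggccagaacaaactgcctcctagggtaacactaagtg
TET1: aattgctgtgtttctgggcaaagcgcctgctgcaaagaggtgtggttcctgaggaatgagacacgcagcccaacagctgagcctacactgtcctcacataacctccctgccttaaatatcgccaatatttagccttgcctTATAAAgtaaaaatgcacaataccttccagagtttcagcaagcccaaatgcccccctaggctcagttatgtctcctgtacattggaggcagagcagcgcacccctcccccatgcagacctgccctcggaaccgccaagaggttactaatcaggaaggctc
LOC105370767: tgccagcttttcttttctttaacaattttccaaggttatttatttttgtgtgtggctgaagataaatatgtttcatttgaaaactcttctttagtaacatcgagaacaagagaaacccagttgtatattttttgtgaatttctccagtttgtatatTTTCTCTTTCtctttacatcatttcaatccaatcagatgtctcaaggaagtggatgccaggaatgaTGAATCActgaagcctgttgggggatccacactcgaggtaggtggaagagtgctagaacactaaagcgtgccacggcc

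The SLC14A1 window (chr18:45723931-45724230, plus strand) held none of the 5 motifs. The EHD4-AS1 window (chr15:41921167-41921466, plus strand) held 1 GAS match, and the TET1 window (chr10:68600018-68600317, plus strand) held 1 TATA match. The LOC105370767 window (chr15:36361465-36361764, minus strand) held 1 ISRE and 1 AP-1 match. In all, 27 windows fell in 20 members, some of them overlapping starts of the same gene. ISRE matches were in 3.70% of the 27 windows, against 19.7% of 534 windows in risers, 3.49% of 13578 windows in all peaks with a mean score of at least 20 and 3.57% of all 35116 windows in the table. GAS matches were in 14.8% of member windows, 12.2% of riser windows and 7.66% of all windows. For AP-1 the shares were 22.2%, 9.18% and 7.71%, and for TATA 22.2%, 7.49% and 11.5%. The forkhead motif was in 1 member window (3.70%), against 3.42% of all windows. Member windows were also poorer in G and C, with a median of 39.3% and 2 CpG dinucleotides, against 62.3% and 19 in riser windows and 58.7% and 14 in all windows. A match here is a description of letters and not a bound site, and 27 windows are few.

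The share of members among peaks was higher the farther they lay from a gene. Within 2 kb of a protein-coding TSS, 1 of 7058 peaks was a member (0.014%), and at 2 to 10 kb 21 of 2738 (0.767%). The share was 1.82% at 10 to 50 kb, 2.30% at 50 to 100 kb, 3.83% at 100 to 250 kb and 7.08% beyond 250 kb, where 130 of 1836 peaks were members. Risers showed no such gradient, with shares of 3.73% within 2 kb, 6.65% at 2 to 10 kb and 4.58% beyond 250 kb. The median distance from a member's centre to a protein-coding TSS was 105.0 kb, against 20.4 kb for other peaks, and 249 members (52.2%) lay over 100 kb away, against 4695 other peaks (19.0%).

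**Figure D1:**
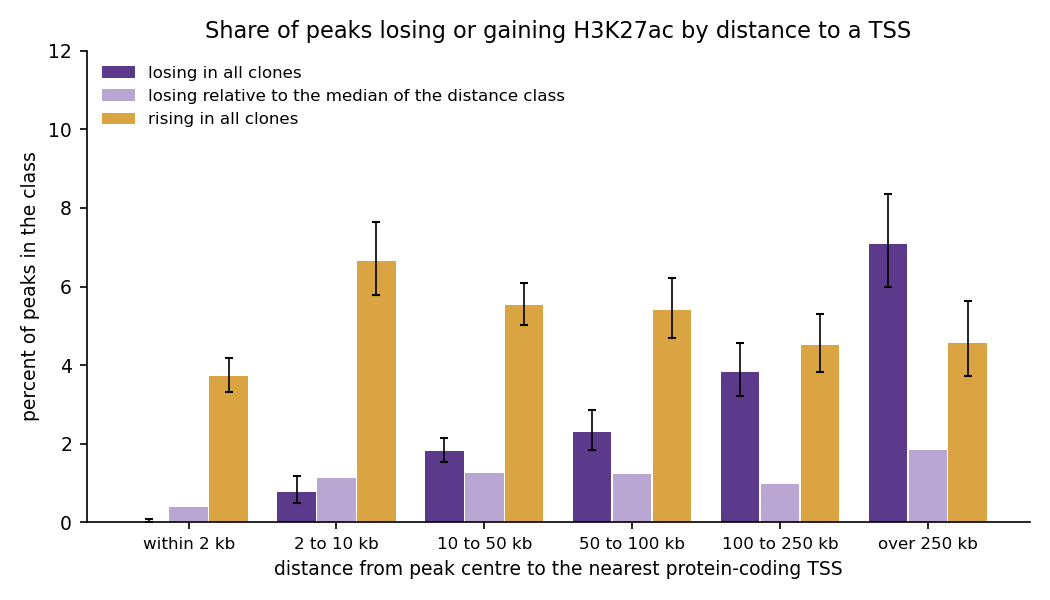
Percent of peaks in each class of distance from the peak centre to the nearest protein-coding TSS that lost H3K27ac in all clones (dark bars), lost it relative to the median of their class (light bars) or rose in all clones (ochre bars), with Wilson 95% intervals on the dark and ochre bars. The dark bars climb to 7.08% beyond 250 kb, while the light bars stay between 0.383% and 1.85%.

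The same order by distance was present in all peaks, members or not. The median hIFNb change of all peaks with a mean score of at least 20 was 0.15 within 2 kb of a TSS, -0.06 at 10 to 50 kb and -0.29 beyond 250 kb. In each clone taken alone the medians fell in the same order over the 6 distance classes. Beyond 250 kb they were -0.35 and -0.22 in IRF1-guide clones 11 and 13, and -0.32 and -0.20 in control clones 1 and 4. When each change was taken relative to the median of its distance class in its clone, an alternative added after the data were seen, 252 peaks met the rule. Of these, 216 were among the 477, and 11.5% held a TSS. The share of members then ran between 0.383% within 2 kb and 1.85% beyond 250 kb.

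Members lay mostly in gene-poor regions. With no protein-coding TSS within 500 kb, 66 of 704 peaks were members (9.38%). With 1 or 2 such genes the share was 4.47%, with 3 to 5 it was 2.40%, with 11 to 20 it was 0.680%, and with 21 or more it was 0.258%. The median member had 3 protein-coding starts within 500 kb, against 8 for other peaks. The order held among peaks without a TSS inside, with 9.80% in the emptiest class and 0.710% in the densest. Chromosome 13 had the highest share of its peaks as members (18 of 450 peaks), followed by chromosome 18 (3.61%) and chromosome 3 (3.25%). The lowest shares with any member were on the gene-rich chromosomes 22 (1 of 486, 0.206%), 17 (0.327%) and 19 (0.368%). The centre of 193 members (40.5%) lay in the body of a protein-coding gene, against 58.2% of other peaks. No exon annotation was used, so exons and introns are not told apart.

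Members were spread over all levels and widths. Of peaks with a mean score of 20 to 40, 1.96% were members, and of those with 320 or more, 1.36%. The median member was 5337 bp wide, against 4592 bp for other peaks, within a range of 1227 to 93856 bp. Together the members covered 3.63 Mb of the 190.6 Mb in peaks. At the low end, 71 members had a mean score between 20 and 30 and 38 had at least 1 library with a score under 10, where the log2 change is least precise.

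The median member had 0.555 of its UT level with hIFNb, taking the mean log2 change over the 4 clones, which had a median of -0.85 and a range of -2.39 to -0.54. The median change was -0.80 in IRF1-guide clone 11, -0.72 in IRF1-guide clone 13, -0.94 in control clone 1 and -0.81 in control clone 4, while the median of all peaks with a mean score of at least 20 lay between -0.04 and 0.01 in the 4 clones. The deepest fall of a member was most often in control clone 1 (205 members), and the shallowest most often in IRF1-guide clone 13 (200 members). Summed over members, the scores made up 1.12% and 1.29% of the library total with hIFNb and 1.92% and 2.06% UT in IRF1-guide clones 11 and 13. In control clones 1 and 4 they made up 1.00% and 1.12% with hIFNb and 1.90% and 1.99% UT. All 4 hIFNb libraries were below all 4 UT libraries in 297 members (62.3%), against 5.15% of all peaks, a count the rule itself favours. For background, limma called 824 of all 31961 peaks lower with hIFNb (2.58%) and 2094 higher (6.55%) at an adjusted p under 0.05. Among members 314 were called lower and 0 higher, while a fit that blocks on clone called 4115 peaks lower (12.9%), all 477 among them. The rule used this contrast, so nothing is read from these counts.

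**Figure D2:**
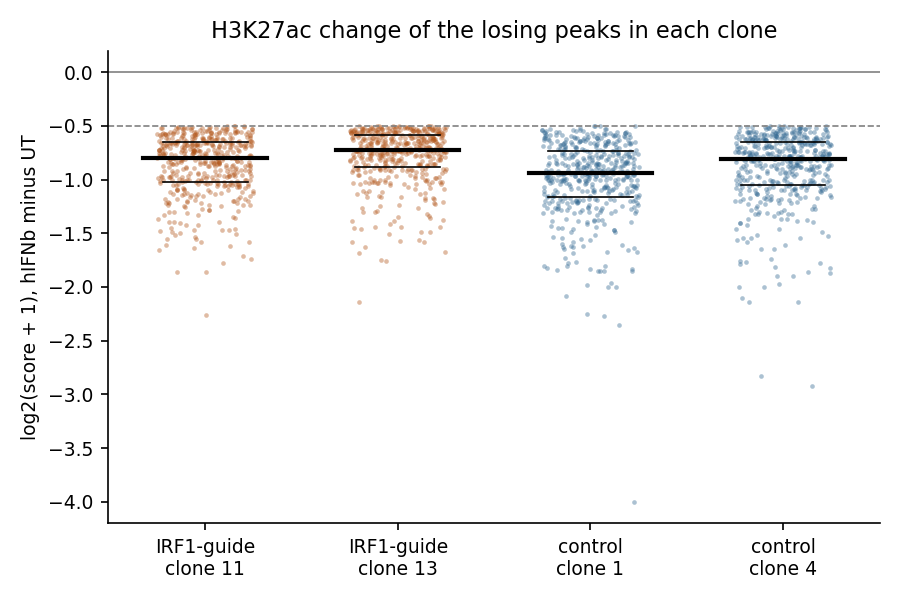
Change in log2(score + 1), hIFNb minus UT, for each of the 477 members in each clone (points), with the median (thick line) and quartiles (thin lines) and the limit of the rule at -0.5 (dashed). Medians lie between -0.94 in control clone 1 and -0.72 in IRF1-guide clone 13, and the deepest single fall is in control clone 1.

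The limit of -0.5 cut through a continuous range. In 245 members the clone that fell least was within 0.1 of the limit, and 469 peaks lay within 0.1 on the other side. Just inside was a peak 80.4 kb from the TSS of GPC6, a glypican gene (chr13:93144104-93148800), whose least change was -0.5004. Its scores were 40 and 54 with hIFNb and 57 and 80 UT in IRF1-guide clones, against 39 and 14 with hIFNb and 68 and 31 UT in control clones. Just outside was a peak 92.5 kb from TSC22D2 (chr3:150306317-150325191), whose least change was -0.4998. Its scores were 196 and 185 with hIFNb and 318 and 262 UT in IRF1-guide clones, against 226 and 218 with hIFNb and 412 and 311 UT in control clones. A further 155 peaks met the change in every clone but had a mean score under 20.

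By the clone that fell least, the 2 deepest members lay inside interferon-stimulated genes, RIGI and DDX60L. RIGI encodes the cytosolic RNA sensor RIG-I, and its member peak lies 24.2 kb into the gene (chr9:32500531-32503548). There the scores were 14 and 9 with hIFNb and 71 and 43 UT in IRF1-guide clones 11 and 13, against 18 and 11 with hIFNb and 62 and 52 UT in control clones 1 and 4. Every hIFNb library was below every UT library, and the mean change was -2.07. The promoter peak of the same gene did the opposite, with scores of 218 and 161 with hIFNb and 43 and 38 UT in IRF1-guide clones, and 196 and 158 with hIFNb and 59 and 57 UT in control clones. That promoter peak was a riser, with a mean change of 1.88.

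DDX60L, an interferon-induced helicase gene related to DDX60, held 3 members in a row, all inside the gene. The strongest of them lies 43.0 kb from the TSS (chr4:168432499-168442515), with scores of 72 and 75 with hIFNb and 217 and 256 UT in IRF1-guide clones, against 48 and 39 with hIFNb and 236 and 175 UT in control clones. Its mean change was -1.94, and those of the other members were -1.52 at 28.7 kb and -1.41 at 57.9 kb. A further peak in the gene had a mean change of -1.75, but its mean score of 5.62 kept it out of the rule. The DDX60L promoter peak had scores of 565 and 486 with hIFNb and 417 and 341 UT in IRF1-guide clones, and 501 and 491 with hIFNb and 423 and 333 UT in control clones. Its mean change of 0.44 left it short of the riser rule.

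Whether falls inside a gene accompany a rising promoter in general can be counted. Among 363 genes with a riser at the promoter, 140 body peaks included 4 members (2.86%), among them those in RIGI, LGMN and ATP10A, and 29 risers (20.7%), and their median change was 0.18. Among the other 8063 genes with a promoter peak, 97 of 5076 body peaks were members (1.91%), 248 were risers (4.89%) and the median change was -0.07. Risers outnumbered members in the gene bodies of both sets, as among all peaks with a mean score of at least 20 (4.94% against 1.89%). The share of risers was higher where the promoter rose, while the share of members there rests on 4 peaks.

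**Figure D3:**
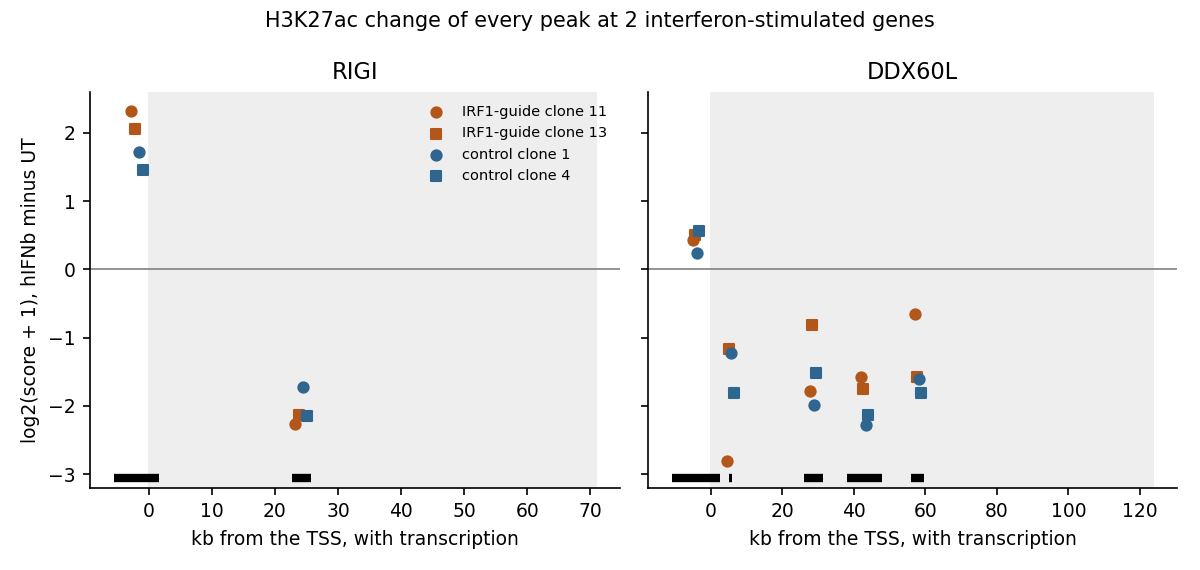
Change in log2(score + 1), hIFNb minus UT, of every peak at RIGI and DDX60L in each clone (coloured points, spread slightly sideways so that the clones can be told apart), against distance from the TSS in kb. Grey shading is the gene, and black bars are the peaks: the peak at the start lies above 0 in all 4 clones and each peak inside the gene below 0.

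FOXA1, which encodes a pioneer transcription factor of endodermal epithelium, had a member 27.9 kb from its TSS (chr14:37566266-37568368). The scores were 14 and 12 with hIFNb and 40 and 33 UT in IRF1-guide clones, and 19 and 18 with hIFNb and 42 and 44 UT in control clones. All hIFNb libraries were below all UT libraries, with a mean change of -1.30. The FOXA1 promoter peak changed by a mean of -0.06, with scores of 111 and 85 with hIFNb and 121 and 114 UT in IRF1-guide clones, and 89 and 106 with hIFNb and 108 and 71 UT in control clones. Further members of the locus lay at -102.1 kb from the TSS, near TTC6 (mean change -0.94), and at 266.3 kb, near MIPOL1 (-1.48). Between them 1 peak moved the other way, at 174.0 kb, with a mean change of 1.01. Of the 8 peaks of the locus with a mean score of at least 20, 7 had a mean change below 0, and those that were neither members nor the promoter lay at -0.63, -0.20 and -0.14 beside the 1 higher peak.

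The other members with the deepest shared falls were modest in level, and most lay far from a protein-coding TSS, 6 of them in the body of a gene. In the body of MYO16, an unconventional myosin gene (chr13:108697903-108703886), the scores were 22 and 25 with hIFNb and 47 and 60 UT in IRF1-guide clones, and 28 and 27 with hIFNb and 65 and 62 UT in control clones. The mean changes were -1.24 in CTNNA2, an alpha-catenin gene, -1.27 in NAALADL2, -1.08 in CFAP299, a cilia-associated gene, -1.17 in CCDC178 and -1.14 in FREM2, an extracellular matrix gene. A member 236.9 kb from the kinase gene DYRK2 changed by -1.50, and 1 that lies 841.4 kb from the protocadherin gene PCDH18, with no protein-coding start within 500 kb, by -1.33. Widest apart between clones was a member 240.3 kb from PKDCC, a secreted kinase gene (chr2:41805469-41810007). Its scores were 13 and 54 with hIFNb and 42 and 111 UT in IRF1-guide clones, and 1 and 4 with hIFNb and 31 and 37 UT in control clones. The control clones were near 0 with hIFNb there, so their changes there (-2.93 in control clone 4, and deeper in clone 1) depend on the pseudocount.

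Members linked to a gene within 50 kb were 150, for 145 genes. Beside RIGI, DDX60L, FOXA1 and FREM2, the deepest of these included CRB1, an apical polarity gene (-1.14), SHLD1, a shieldin subunit of DNA repair (-1.03), and TSPAN8, a tetraspanin of epithelial cells (-1.26). Then came LOC124904409 (-1.11), the kinesin gene KIF25 (-1.02), the splicing regulator RBM20 (-1.31) and MTRF1, a mitochondrial release factor gene (-1.28). In the CRB1 peak (chr1:197306564-197308378) the clones differed in level more than treatments did, with scores of 9 and 38 with hIFNb and 22 and 78 UT in IRF1-guide clones, and 2 and 21 with hIFNb and 5 and 54 UT in control clones. Within each treatment clones 11 and 1 were low there and clones 13 and 4 high, so the groups overlapped although each clone fell. The least fall of this peak was in control clone 1, where scores of 2 and 5 make the change depend on the pseudocount. The deposited columns of clones 11 and 1 end in R1 and those of 13 and 4 in R2, an ending the labels do not explain.

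The members of highest score were broad and fell less deeply. The strongest lies 329.6 kb from TGFB2, a TGF-beta ligand gene, and spans 89420 bp (chr1:218630189-218719608). The scores were 1630 and 1785 with hIFNb and 2632 and 2551 UT in IRF1-guide clones, and 982 and 1468 with hIFNb and 1836 and 2497 UT in control clones. All hIFNb libraries were below all UT libraries, and the mean change was -0.72. The widest member, at SLC14A1 (93856 bp, chr18:45717705-45811560), had 1251 and 1825 with hIFNb and 2072 and 2722 UT in IRF1-guide clones, against 1113 and 1214 with hIFNb and 2157 and 2133 UT in control clones. It covers the SLC14A1 window printed above, and its mean change was -0.77. The peaks next to it on both sides were not members, with mean changes of -0.48 and -0.43. Farther out on each side lay a smaller member, with mean changes of -1.08 and -0.95. At EHD4, an endocytic recycling gene, the member that holds the EHD4-AS1 start (chr15:41915475-41948107) had 616 and 624 with hIFNb and 971 and 1036 UT in IRF1-guide clones, and 539 and 568 with hIFNb and 908 and 1009 UT in control clones. Its 4 hIFNb libraries lay well apart from its 4 UT libraries.

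Mean changes of the other high-scoring members lay in the same narrow band. They were -0.68 in TXK, a Tec family kinase gene, -0.83 at 118.1 kb from ANKRD55, -0.64 at the lncRNA LOC105370767, and -0.72 at 140.4 kb from FAM3C. A peak with the start of the lncRNA LOC105370507 (chr14:54165527-54194170) changed by -0.75. A peak on chromosome 12 (chr12:24746351-24770976) changed by -0.88, with scores of 356 and 792 with hIFNb and 569 and 1190 UT in IRF1-guide clones, and 148 and 431 with hIFNb and 336 and 921 UT in control clones. Clones 13 and 4 were the higher ones there in both treatments. By level class, the median change of members was -0.97 at a mean score of 20 to 40 and -0.74 at 320 or more.

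**Figure D4:**
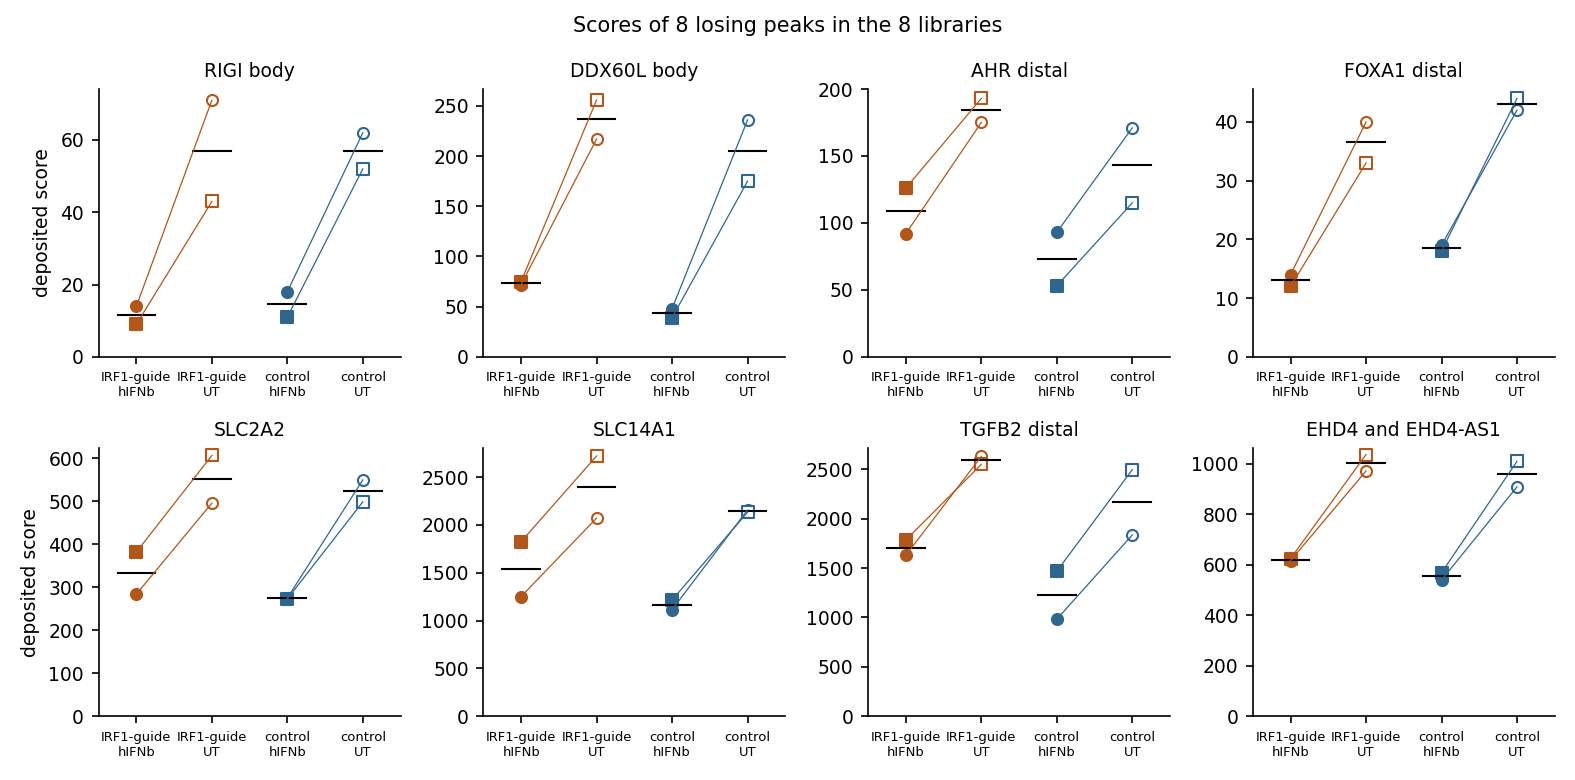
Deposited scores of 8 members in the 8 libraries, with hIFNb (filled) left of UT (open) within each genotype, clones 11 and 1 as circles, clones 13 and 4 as squares, lines joining the libraries of a clone and bars at group means. In each panel every clone has its lower score with hIFNb, from 9 against 43 in RIGI to 1785 against 2551 near TGFB2.

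TET1, a 5-methylcytosine dioxygenase gene, held the 1 member within 2 kb of a protein-coding TSS (chr10:68598725-68601328), and it was singled out after its values were seen. Its scores were 30 and 39 with hIFNb and 64 and 74 UT in IRF1-guide clones, and 19 and 22 with hIFNb and 35 and 43 UT in control clones. The hIFNb scores of the IRF1-guide clones lay near the UT scores of the control clones, so the groups overlapped, and the mean change was -0.94. The deposited annotation names no TSS in this peak, whereas the RefSeq table places 2 TET1 starts there, the first of which is the window shown.

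Gene lists gave members in 8 of 18 pathways or cell types. The interferon-stimulated list had 5 members among its 69 peaks (7.25%, against 1.89% of all peaks with a mean score of at least 20), those of RIGI and DDX60L among them, beside 47 risers and a median change of 1.21. Of 60 peaks of ductal and endodermal transcription factors 2 were members, at FOXA1 and at SOX9, a ductal progenitor factor. The SOX9 member, 31.2 kb from the TSS, had 22 and 16 with hIFNb and 39 and 37 UT in IRF1-guide clones, and 30 and 21 with hIFNb and 53 and 38 UT in control clones. The median change of that list was -0.01, and that of all peaks lay near 0 as well. Its 2 members made up 3.33% of its peaks, and 4 of its peaks were risers. A list takes peaks near or inside its genes, so the 1.89% of all peaks is not a like measure. Within 50 kb of a protein-coding TSS lay 31.4% of members, against 67.6% of other peaks with a mean score of at least 20.

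In the list of xenobiotic and retinoid genes 2 of 51 peaks were members, at AHR, the aryl hydrocarbon receptor gene, and at TIPARP, an AHR target that encodes a mono-ADP-ribosyltransferase. The AHR peak, 38.1 kb from the TSS, had 92 and 126 with hIFNb and 175 and 193 UT in IRF1-guide clones, and 93 and 53 with hIFNb and 171 and 115 UT in control clones. The TIPARP peak had a mean change of -0.66. In the glucose list 1 of 49 peaks was a member, in SLC2A2, which encodes the glucose transporter GLUT2 (chr3:170995165-171011244). It had 284 and 382 with hIFNb and 496 and 607 UT in IRF1-guide clones, and 275 and 273 with hIFNb and 550 and 499 UT in control clones, with no overlap of the groups.

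Single members belonged to the lists of epithelial surface genes (TSPAN8, 1 of 67 peaks), basal and mesenchymal genes (TP63, 1 of 57, mean change -0.98), RAS and MAPK feedback genes (RASAL2, 1 of 96, -0.88) and markers of other cell types (LUM, 1 of 25, -1.19). LUM, the fibroblast gene for lumican, had no promoter peak. The lists with no member were antigen presentation (39 peaks), GBP and APOL genes (9), YAP and TEAD (61), TGF-beta and SMAD (59), AP-1 (39), Wnt and Notch (77), NF-kB and inflammation (51), lipid synthesis and uptake (74), cell cycle (45) and housekeeping (17). With members scarcer near genes than the 1.89% of all peaks, a list of these sizes would hold few members or none. None of these shares was tested.

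About 1 member in 3 lay near another, and most peaks next to a member had lower scores with hIFNb as well. Joining members less than 250 kb apart gave 380 clusters, of which 312 were single and 68 held at least 2, with 165 members (34.6%) between them. Within 100 kb of another member lay 119 members (24.9%), while 4.52% of other peaks were as near to a member. Within 100 kb of a riser lay 17 members (3.56%), against 14.0% of other peaks. The largest clusters held 5 members each. The first, on chromosome 13 (chr13:103881911-104144829), contains no protein-coding gene, and all 5 of its peaks were members, with a median change of -0.91. The second surrounds ANKRD55 (chr5:56208954-56444505), where all 8 peaks with a mean score of at least 20 were below 0 and 5 were members.

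Further clusters of 4 were at chr2:220206497-220623879, which has no protein-coding gene, at VPS13D, a lipid transfer gene (chr1:12379156-12544666), at ADAMTS18, a secreted metalloprotease gene (chr16:77236275-77361359), and at TPRG1 (chr3:189268371-189343190), each of these genes holding 3 of the 4 in its body. None of these held a riser. Peaks that were no members but lay within 10 kb of one had a median change of -0.45, and 88.4% of the 172 were below 0. At 50 to 100 kb the median was -0.20 (480 peaks), at 250 to 1000 kb -0.03 (4031 peaks) and beyond 1000 kb 0.03 (18419 peaks). The gap to a member and the distance to a gene go together, and their parts in this pattern were not tested.

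**Figure D5:**
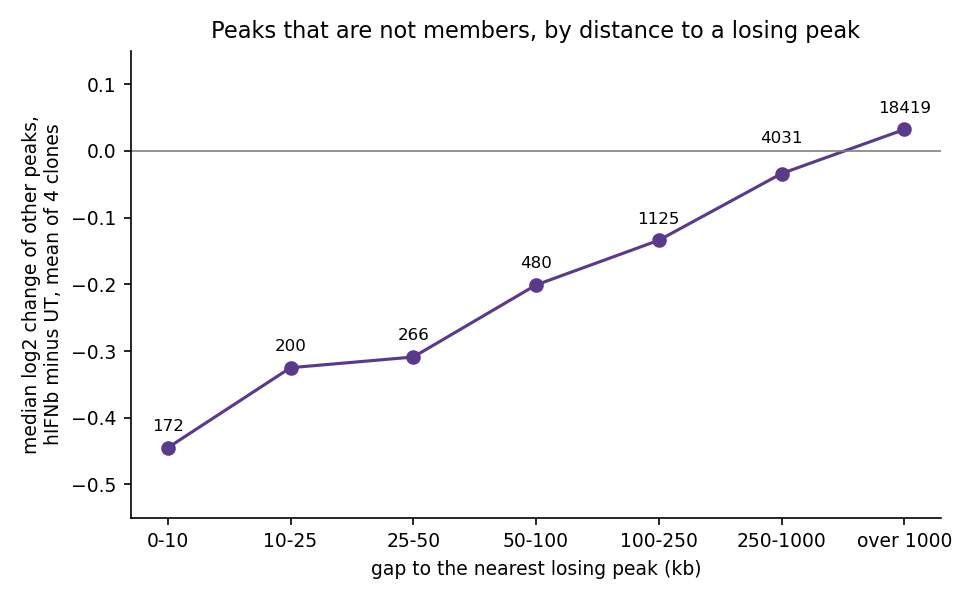
Median hIFNb minus UT change in log2(score + 1), as the mean of 4 clones, of peaks that are not members, by the gap to the nearest member in kb, with the number of peaks above each point. The median rises with the gap, between -0.45 within 10 kb and 0.03 beyond 1000 kb.

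IRF1-guide and control clones differed at few members. The rule set no condition on the difference between genotypes, but its minimum mean score admits a peak that is high in 1 genotype, and its limit on the change used the same hIFNb scores as the comparison with hIFNb. Over both treatments, on clone means, limma called 0 members higher in IRF1-guide clones (0.0594% of all 31961 peaks were) and 0 lower (0.457% of all peaks were), at an adjusted p under 0.05. At an unadjusted p under 0.05, 37 members were higher (7.76%, against 5.02% of all peaks) and 27 lower (5.66%, against 9.65%). The median difference of members was 0.03, against -0.02 for all peaks with a mean score of at least 20. With the clone as a block, which uses a correlation of 0.492 between libraries of a clone, 9 members were called higher (1.89%, against 0.523% of all peaks) and 3 lower (0.629%, against 1.77%). Without hIFNb, limma called 0 members higher and 0 lower, as it did for all peaks (0% each way), and at an unadjusted p under 0.05 there were 22 higher (4.61%, against 4.80% of all peaks) and 24 lower (5.03%, against 7.25%). The block gave 0 members both ways, where 0.0594% of all peaks were higher and 0.153% lower.

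With hIFNb, limma called 6 members higher in IRF1-guide clones (1.26%, against 0.238% of all peaks) and 1 lower (0.210%, against 2.19%). Of these 7 members, 4 averaged a score under 20 in their lower genotype and so met the minimum only through the other, and their differences are given with no p. They were the peak near PKDCC described above, by 3.13 ± 0.68 (log2, SE), a peak 816.2 kb from the cadherin gene CDH9, by 2.16 ± 0.42, a peak 48.2 kb from UGT2B11, by 2.05 ± 0.45, and a peak 55.8 kb from ERCC5, a DNA repair nuclease gene (chr13:102900505-102903121), by -1.76 ± 0.34. At the ERCC5 peak the scores with hIFNb were 5 and 6 in IRF1-guide clones against 21 and 21 in control clones. UGT2B11 is 1 of several very similar glucuronosyltransferase genes, so reads near it may not place uniquely. The other 3 members were above the minimum in both genotypes. A neighbour of the PKDCC peak in the same run of members (chr2:41821368-41833335) differed by 1.92 ± 0.25 (limma adjusted p = 0.0080). It had scores of 144 and 209 with hIFNb in IRF1-guide clones and 45 and 45 in control clones, and of 226 and 328 UT in IRF1-guide clones and 157 and 170 UT in control clones. A peak 1095.2 kb from GALC differed by 1.42 ± 0.30 (limma adjusted p = 0.0402), and a peak in VPS13D by 1.23 ± 0.23 (limma adjusted p = 0.0242). The GALC peak met the rule narrowly. It changed by -0.50 and -0.52 in IRF1-guide clones 11 and 13, and by -2.09 and -1.08 in control clones 1 and 4. Since the rule used the same hIFNb scores, these p values do not stand apart from the choice of members.

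These calls rest on 2 clones a group. Leaving out the hIFNb library of IRF1-guide clone 11 left 2 higher and 0 lower, and leaving out that of IRF1-guide clone 13, control clone 1 or control clone 4 left 0 both ways. With the block 10 were higher (2.10%, against 0.441% of all peaks) and 1 lower (0.210%, against 2.64%). Without hIFNb all 7 differed in the same direction, by 1.87 near CDH9, 1.86 near UGT2B11, 1.09 in VPS13D, 0.99 and 0.73 at the PKDCC peaks, 0.34 near GALC and -1.15 near ERCC5 on the log2 scale, none of which passed (smallest limma adjusted p = 0.123). The 7 were picked by the difference with hIFNb in the same clones, and the rule sets each UT score above the hIFNb score of its clone. Their shared direction is therefore no separate evidence of a genotype difference. RIGI, FOXA1, SLC2A2 and SLC14A1 did not pass either way. Their differences with hIFNb were -0.30, -0.48, 0.26 and 0.38, with standard errors between 0.188 and 0.385, which leave room for differences of moderate size. No DDX60L member passed either. With hIFNb the strongest had scores of 72 and 75 in IRF1-guide clones, against 48 and 39 in control clones. The other DDX60L members had 25 and 36 against 20 and 15, and 45 and 31 against 34 and 20.

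The median fall was slightly shallower in the IRF1-guide clones. The mean change in IRF1-guide clones exceeded that in control clones by a median of 0.11 over members (quartiles -0.05 and 0.27), against 0.01 over all peaks with a mean score of at least 20. It was less deep in IRF1-guide clones for 318 members and deeper for 159. Both IRF1-guide clones fell less than both control clones in 137 members, and more than both in 48. These counts are made of the changes that chose the members, and no test of them was run. They were not made over all peaks, so they are not read as a trait of the members. Of all peaks with a mean score of at least 20, 18.5% fell by at least 0.5 in control clone 1 and 14.0% in control clone 4. In IRF1-guide clones 11 and 13 the shares were 14.9% and 12.3%. Control clone 1 had the deepest median fall of the 4, and IRF1-guide clone 13 the shallowest, while IRF1-guide clone 11 (-0.80) and control clone 4 (-0.81) differed by 0.01.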

How the data were processed

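H3K27ac ChIP-seq (Abcam antibody ab4729) was measured in 8 libraries. Bowtie2 and the build GRCh38 (hg38) are named in the submitters' processing notes. The sources used here do not give how peaks were called, merged, counted and scaled. The deposited score is the authors' normalised count per peak and library, rounded to whole numbers, so depth and counting intervals are unknown. Peak positions and the TSS named inside a peak come from the same deposited table.

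Scores were analysed as log2(score + 1). No peak was removed, since all had a score above 0 in at least 2 libraries. With limma 3.58.1 on R 4.3.3, genotypes were compared by empirical Bayes along a mean-variance trend, adjusting p by Benjamini-Hochberg over 31961 peaks, on clone means over both treatments and in a group-means model at each treatment. Fits were tested on simulated data. The clone number pairs the 2 libraries of a clone: their deviations from group means correlated at 0.392 in IRF1-guide and 0.437 in control clones. Members were linked to the protein-coding start nearest to the peak centre, up to 50 kb away. Start positions, mostly from the RefSeq promoter table (GRCh38.p14) and otherwise from the deposited distances and names, were known for 18515 of 20052 coding genes, so some distances may be too long.

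Named were the 12 deepest shared falls, 12 more with a linked gene (added after the values were seen), the 10 highest scores, up to 4 members a list, up to 8 called members in each direction and the peaks nearest the limit. Some that this rule takes are not reported here. The members, the lists and this rule were chosen with earlier results of these data known. Alternatives were pseudocounts, filters, scaling, the trend, the block and leaving out libraries or clones.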

Additional observations from a re-analysis of the deposited data

How the results depend on the processing

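The number of members followed the limits of the rule. It was 282 at a mean score of at least 50, 946 at a limit of -0.4, 76 at -0.75 and 14 at -1, and 626 to 1048 when a clone was left out. Relative to the distance class it was 252. The share with a TSS was 6.77% at -0.4, 7.14% at -1, 4.31% to 7.44% without a clone and 11.5% relative to the distance class, each below the 38.1% of other peaks. Rescaled totals gave 467 members, quantile normalization 606, a pseudocount of 0.5 gave 495 and 1 of 5 gave 388.

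Over both treatments a pseudocount of 5 gave 4 members higher in IRF1-guide clones. With the clone as a replicate block 9 were higher and 3 lower, and with the R1 or R2 ending of the column names as a covariate (added after the data were seen) 13 and 3. Without hIFNb the covariate gave 2 higher and 1 lower. With hIFNb the count higher was 3 with no trend, 10 with the block, 21 with the covariate and 0 to 6 when a library was left out, and the count lower was 6 with the covariate and 0 to 1 when a library was left out. The block left both counts without hIFNb at 0 and the count lower with hIFNb at 1. For the hIFNb response the clone entered as a fixed term instead, with no correlation. That fit called all 477 members lower, against 314 without the clone term. For the hIFNb response of all peaks, 2094 were called higher and 824 lower. The fixed clone term gave 4332 higher and 4115 lower, no trend 404 lower and the covariate 2136 lower. Leaving out a library gave 1159 to 1721 higher and 204 to 565 lower. The causes of these moves were not tested, and leaving out a library or clone also lowers the number of libraries. With depth unknown and 2 clones a group, small genotype differences could not be detected.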

Other observations

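Some long genes held several members that were not named above, chosen here by the number of members with their centre in the gene. There were 19 protein-coding genes with 2 or more, and 9 with 3. Beside DDX60L, ADAMTS18, TPRG1, VPS13D and NAALADL2, the genes with 3 were CCDC192, DNM3, a dynamin gene, DPH6, and ETV6, an ETS-family repressor gene. The median change of their members was -0.70 in CCDC192, -0.83 in DNM3 and -0.95 in ETV6.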
